A study of Mus musculus with 12 samples.

Results

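The 8 CXC chemokine genes Cxcl1, Cxcl2, Cxcl3, Cxcl9, Cxcl10, Cxcl11, Cxcl13 and Cxcl16 were followed through 12 RNA libraries from mouse melanomas. The labels describe the samples as tumor associated macrophages. They were taken as a named list from 34989 genes, and for each gene the values of its transcripts were summed in every library. All 8 were found, and all 8 were among the 16027 genes that passed the filter on low counts. Every mouse carried Tyr::CreER, a tamoxifen-activated Cre under the tyrosinase promoter that acts in melanocytes, and tumors were induced locally. The combination group (CSF1Ri + CD40 agonist) received both agents. The CSF1Ri group ate chow with 600 mg/kg of PLX6134, a compound that blocks the CSF1 receptor. The CD40 agonist group received the activating antibody FGK4.5 at 10 mg/kg by intraperitoneal injection every 3 days, for 10 doses or until a tumor endpoint. The Control group is named only as Control, and the protocols give normal chow and PBS as the counterparts of the agents. Treatment started 30 days after induction, with less than 100 mm3 of tumor in total, and went on for 30 days at most. Mice were age-matched, with the age itself not given. Each group has 3 samples, each sample is a pool of at least 3 tumors, and p-values therefore measure the spread between pools.

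CXC chemokines are small secreted proteins that bind G protein-coupled receptors on leukocytes and guide them along gradients. Cxcl1, Cxcl2 and Cxcl3 carry the glutamate-leucine-arginine (ELR) motif, bind Cxcr2 and attract neutrophils, and macrophages make them within hours of NF-kB activation by Toll-like receptors, TNF or IL-1. Cxcl9, Cxcl10 and Cxcl11 are induced by interferons, bind Cxcr3 and attract activated T cells and NK cells. Cxcl13 attracts B cells through Cxcr5 and builds lymphoid follicles. Cxcl16 is made as a membrane-bound ligand of Cxcr6, can be shed by the protease Adam10, and is carried by macrophages and dendritic cells. The CSF1 receptor maintains macrophages in tissue, and CD40 is a TNF receptor family member that activates myeloid cells.

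Library totals ran from 26316328 to 39818657 estimated counts. The summed level of 16 macrophage and monocyte genes (Csf1r, Adgre1, Cd68, Lyz2, the C1q genes and others) was 14897 to 37395 TPM (transcripts per 1000000, scaled for length) in the combination libraries, 26397 to 31647 TPM in the CSF1Ri libraries, 17987 to 21408 TPM in the CD40 agonist libraries and 19926 to 22992 TPM in the Control libraries, and none of the 16 was at 0 in a whole group. Lyz2 was by far the largest part of these sums, with a mean of 18972 TPM over the 12 libraries, against 1304 TPM for Cd14, the next gene. The sums therefore say little of the other genes. In CSF1Ri against Control, 7 of the 16 had a positive and 9 a negative log2 fold change (median -0.19). edgeR called 1 of the 16, Cx3cr1, lower in the combination than in Control (-0.71 ± 0.14, adjusted p = 0.0454). That call was kept only without combination replicate 2 or CSF1Ri replicate 3 (adjusted p up to 0.153 without the others). No sorting gate is given in the sources used here, and markers of other cells were present: 18 neutrophil genes summed to 1586, 2907 and 4602 TPM in the combination libraries, 8059.6, 5425 and 1584 TPM in the CSF1Ri libraries, 969, 660.2 and 787 TPM in the CD40 agonist libraries and 3322, 1355 and 1266 TPM in the Control libraries, in replicate order. Combination replicate 2 and CSF1Ri replicate 3 stood apart from the other libraries of their groups on the second principal component, and CD40 agonist replicate 1 on the third. Where leaving out the first 2 ended a call or moved a chemokine's value by a wide margin, the value without them is given beside it. In bulk RNA, fewer cells of a type and less RNA per cell cannot be told apart.

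Of the 8 genes, 7 lie on chromosome 5 in GENCODE M21 (GRCm38), in clusters by class. Cxcl3 (chr5:90786103-90789600), Cxcl1 (chr5:90891241-90893115) and Cxcl2 (chr5:90903871-90905938) are on the plus strand, and Cxcl9 (chr5:92321347-92328079), Cxcl10 (chr5:92346638-92348889) and Cxcl11 (chr5:92359544-92365485) follow on the minus strand. Cxcl13 (chr5:95956951-95961068, plus strand) lies further along, and Cxcl16 (chr11:70453983-70459984, minus strand) is on chromosome 11. Promoters of 6 of the 8 genes are in the RefSeq table for GRCm38.p6. The 5 printed next are those of the neutrophil attractants and of the Cxcr3 ligands Cxcl9 and Cxcl10, shown because some hold kappaB or interferon response letters and some do not. They end at the start of the gene, read 5′ to 3′ on the gene's strand, and cover chr5:90890995-90891240, plus strand, chr5:90903649-90903870, plus strand, chr5:90785851-90786100, plus strand, chr5:92328080-92328329, minus strand and chr5:92348890-92349139, minus strand. Capitals mark matches to the kappaB motif, which NF-kB binds, and to the core of the interferon-stimulated response element (ISRE), searched as GAAA, any 2 bases and GAAA.
Cxcl1: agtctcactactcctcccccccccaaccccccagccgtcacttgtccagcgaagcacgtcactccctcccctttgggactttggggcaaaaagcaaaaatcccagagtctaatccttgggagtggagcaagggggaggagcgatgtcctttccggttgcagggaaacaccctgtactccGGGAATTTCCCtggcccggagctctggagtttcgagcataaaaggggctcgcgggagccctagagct
Cxcl2: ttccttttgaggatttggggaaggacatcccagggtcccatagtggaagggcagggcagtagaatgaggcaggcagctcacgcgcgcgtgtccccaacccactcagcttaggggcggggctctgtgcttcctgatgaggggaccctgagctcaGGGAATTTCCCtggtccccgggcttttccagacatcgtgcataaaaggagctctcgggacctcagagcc
Cxcl3: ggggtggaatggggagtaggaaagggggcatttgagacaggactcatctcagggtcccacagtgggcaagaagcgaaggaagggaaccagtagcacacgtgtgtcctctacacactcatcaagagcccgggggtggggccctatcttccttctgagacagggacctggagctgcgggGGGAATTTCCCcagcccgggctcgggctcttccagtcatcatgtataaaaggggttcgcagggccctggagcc
Cxcl9: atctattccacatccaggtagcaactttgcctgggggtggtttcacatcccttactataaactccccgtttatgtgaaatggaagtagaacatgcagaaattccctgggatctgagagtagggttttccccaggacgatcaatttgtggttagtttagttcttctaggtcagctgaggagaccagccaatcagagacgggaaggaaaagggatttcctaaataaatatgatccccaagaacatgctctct
Cxcl10: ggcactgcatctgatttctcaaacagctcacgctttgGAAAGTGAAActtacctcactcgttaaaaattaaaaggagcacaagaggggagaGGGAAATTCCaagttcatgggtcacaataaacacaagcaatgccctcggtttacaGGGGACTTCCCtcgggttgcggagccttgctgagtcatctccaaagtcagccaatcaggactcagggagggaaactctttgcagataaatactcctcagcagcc
Both strands of the 250 bases before each RefSeq start were searched, and positions count back from that start. For Cxcl1 and Cxcl2 the last 4 and 28 of these bases fall inside the gene as placed above and are not printed. Distances from the printed end are shorter by these numbers for Cxcl1 and Cxcl2. Cxcl1, Cxcl2 and Cxcl3 share an 11-base run, GGGAATTTCCC, which ends 61, 87 and 63 bases before the start and holds 2 overlapping kappaB matches, 1 on each strand. It is the longest run common to all 3, was picked after the sequences were seen, and is in 14 of 32851 promoters (0.0426%). The Cxcl10 promoter holds the ISRE core from -213 to -204, a kappaB match from -159 to -150, a pair of overlapping kappaB matches from -104 to -94, and an AP-1 match (TGANTCA) from -74 to -68. The Cxcl9 window holds none of the kappaB, ISRE core, AP-1 or GAS (TTCNNNGAA) letters, and the window of Cxcl13, which is not printed, holds none of these either. Among all promoters, 7.25% hold a kappaB match, 2.98% the ISRE core, 7.02% a GAS match and 6.75% an AP-1 match. A match is a description of these letters and says nothing of binding.

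Cxcl2 had the highest mean level of the 8 genes in every group, and Cxcl13 the lowest. Mean Cxcl2 levels ranked 147 among 34989 genes in combination libraries, 98 in CSF1Ri libraries, 161 in CD40 agonist libraries and 432 in Control libraries. In the combination and Control groups the order of mean TPM was Cxcl2, Cxcl16, Cxcl3, Cxcl1, Cxcl10, Cxcl9, Cxcl11 and Cxcl13, and in the CSF1Ri and CD40 agonist groups Cxcl3 and Cxcl16 changed places. Most neighbours in these orders overlapped between libraries. The neighbours that did not overlap were Cxcl2 over Cxcl16, Cxcl9 over Cxcl11 and Cxcl11 over Cxcl13 in the combination group; Cxcl16 over Cxcl1 and Cxcl11 over Cxcl13 in the CSF1Ri group; Cxcl2 over Cxcl3 and Cxcl1 over Cxcl10 in the CD40 agonist group; and Cxcl1 over Cxcl10 and Cxcl10 over Cxcl9 in the Control group.

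**Figure D1:**
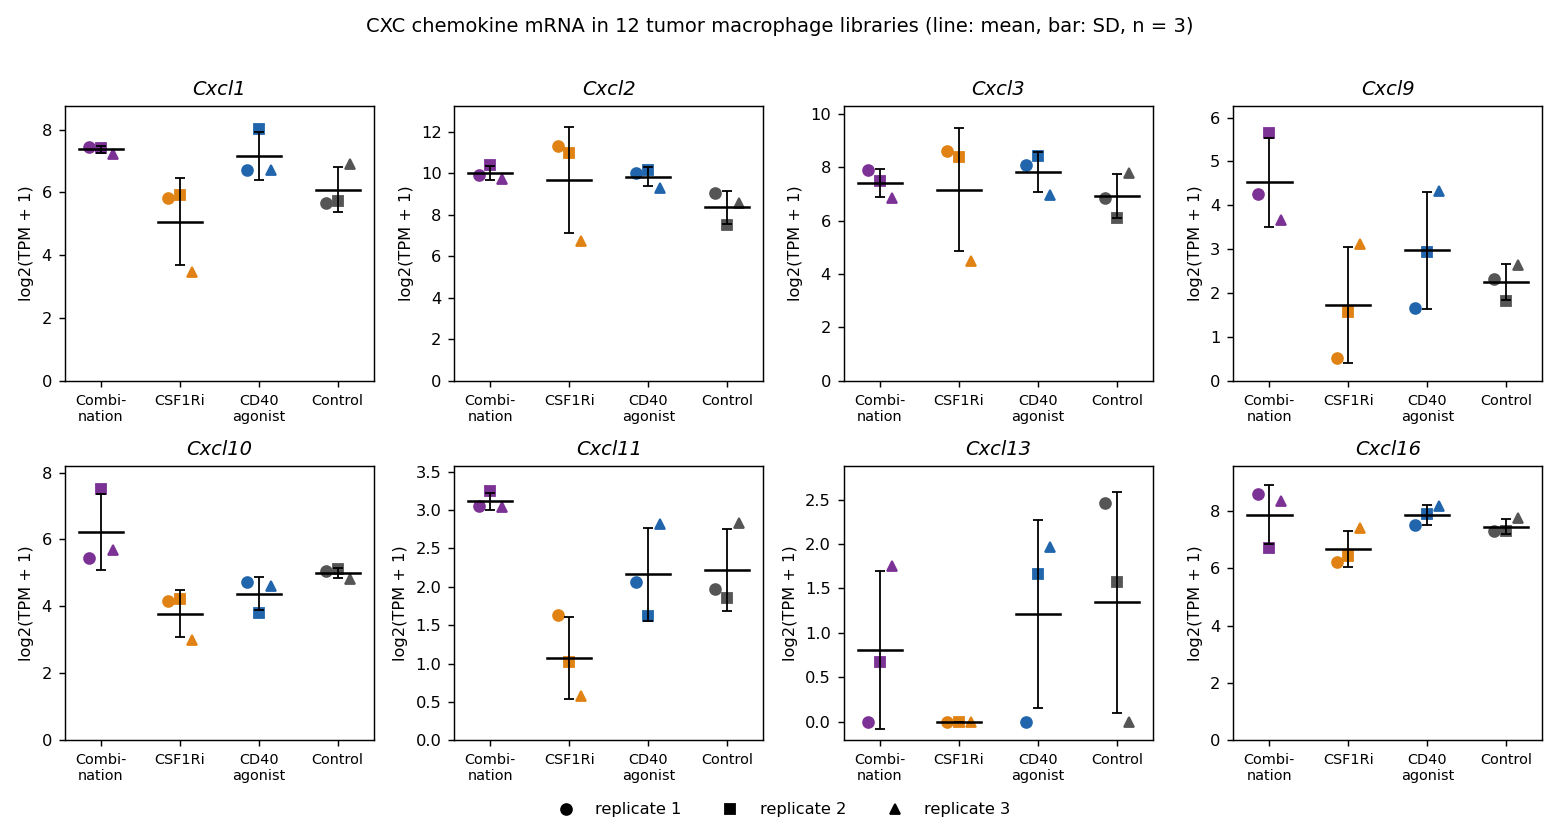
Level of each CXC chemokine gene on the log2(TPM + 1) scale (vertical axis) in the combination, CSF1Ri, CD40 agonist and Control groups. Symbols are the 3 libraries of a group, the line is their mean and the bar their SD. The combination libraries lie above all CSF1Ri libraries for Cxcl1, Cxcl9, Cxcl10 and Cxcl11, and CSF1Ri replicate 3 lies far below the other CSF1Ri libraries for Cxcl1, Cxcl2 and Cxcl3.

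The interferon-induced ligands of Cxcr3 were the members with the clearest difference: Cxcl10 and Cxcl11 rose under the combination relative to the CSF1 receptor inhibitor alone. Cxcl10, which recruits activated T cells, had 42.5, 182 and 50.0 TPM in the combination libraries and 16.8, 17.7 and 6.95 TPM in the CSF1Ri libraries. Cxcl10 had 25.6, 13.1 and 23.3 TPM in the CD40 agonist libraries, against 32.2, 33.7 and 27.4 TPM in the Control libraries. All 3 combination libraries lay above all 9 others, and the CSF1Ri libraries lay below all Control libraries. Means were 91.5 ± 78.5, 13.8 ± 5.96, 20.7 ± 6.66 and 31.1 ± 3.30 TPM (SD, n = 3 each) in the same order. Fold changes here and later come from edgeR's quasi-likelihood test on counts, with SE, and adjusted p-values are Benjamini-Hochberg values over 16027 genes, called below 0.05. For the combination against CSF1Ri the log2 fold change of Cxcl10 was 3.07 ± 0.60, adjusted p = 0.0334. Against Control it was 1.88 ± 0.57, adjusted p = 0.165, and against the CD40 agonist 2.19 ± 0.58, adjusted p = 0.292, so neither passed. Without combination replicate 2 these were 0.83 (adjusted p = 0.408) and 1.15 (adjusted p = 0.494). Combination replicate 2, at 182 TPM, carried much of the size: without it the log2 fold change against CSF1Ri was 2.03 (adjusted p = 0.0361), and without both that library and CSF1Ri replicate 3 it was 1.71 (adjusted p = 0.0352).

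The Cxcl10 call against CSF1Ri was close to the threshold. It was lost without Control replicate 1, 2 or 3 (adjusted p = 0.0577, 0.0542 and 0.0542), without CD40 agonist replicate 3 (0.0535), and without CSF1Ri replicate 1, 2 or 3 (0.096, 0.102 and 0.0699). It was kept without each of the other 5 libraries in turn. Over these 12 fits the log2 fold change stayed between 2.03 and 3.43.

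Cxcl11, the third Cxcr3 ligand of this locus, is annotated as a polymorphic pseudogene in GENCODE M21 and was a low transcript. It had 7.30, 8.46 and 7.23 TPM in the combination libraries and 2.11, 1.03 and 0.490 TPM in the CSF1Ri libraries. Cxcl11 had 3.18, 2.06 and 6.04 TPM in the CD40 agonist libraries, against 2.93, 2.63 and 6.08 TPM in the Control libraries. The combination libraries were above every other library, and the CSF1Ri libraries were below every Control and CD40 agonist library except that CSF1Ri replicate 1 lay just above CD40 agonist replicate 2. Group means were 7.66 ± 0.687, 1.21 ± 0.828, 3.76 ± 2.05 and 3.88 ± 1.92 TPM (SD, n = 3 each). The log2 fold change of Cxcl11 was 2.87 ± 0.63, adjusted p = 0.0446, for the combination against CSF1Ri. This call did not survive the loss of any single library (adjusted p between 0.0588 and 0.147 over 12 fits), while the log2 fold change stayed between 2.49 and 3.54. Against Control the log2 fold change was 1.17 ± 0.59, adjusted p = 0.386, and for CSF1Ri against Control it was -1.70 ± 0.60, adjusted p = 0.394.

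Cxcl9, the Cxcr3 ligand most dependent on interferon gamma, had 18.2, 49.1 and 11.7 TPM in the combination libraries and 0.425, 1.95 and 7.74 TPM in the CSF1Ri libraries. Cxcl9 had 2.17, 6.60 and 19.1 TPM in the CD40 agonist libraries, against 3.97, 2.51 and 5.22 TPM in the Control libraries. The combination libraries lay above all CSF1Ri and Control libraries but overlapped with the CD40 agonist libraries, of which replicate 3 exceeded 2 of the 3 combination libraries. The means were 26.3 ± 20.0, 3.37 ± 3.86, 9.28 ± 8.76 and 3.90 ± 1.36 TPM (SD, n = 3 each). Log2 fold changes of Cxcl9 were large but so were their errors: 3.20 ± 1.02, adjusted p = 0.134, against CSF1Ri, and 3.25 ± 1.02, adjusted p = 0.177, against Control. Neither passed the test in edgeR. Both libraries that stood apart moved these values. Without combination replicate 2 the log2 fold change was 2.33 (adjusted p = 0.259) against CSF1Ri and 2.38 (adjusted p = 0.337) against Control. Without CSF1Ri replicate 3 it was 4.72 (adjusted p = 0.0697) against CSF1Ri, and without both 3.85 (adjusted p = 0.0718) against CSF1Ri and 2.38 (adjusted p = 0.214) against Control. For CSF1Ri against Control, Cxcl9 was at 0.05 ± 0.95, adjusted p = 1, and at -1.49 (adjusted p = 0.603) without CSF1Ri replicate 3.

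The neutrophil attractants showed another pattern: none passed the test, and 1 CSF1Ri library stood far below the other 2 for all 3 genes. Cxcl2 had 979, 1329 and 829.8 TPM in the combination libraries and 2519, 1992 and 104 TPM in the CSF1Ri libraries. Cxcl2 had 1038, 1145 and 627 TPM in the CD40 agonist libraries, against 532, 179 and 373 TPM in the Control libraries. CSF1Ri replicates 1 and 2 were the highest of the 12 libraries and CSF1Ri replicate 3 was the lowest, so that group overlapped with Control. The combination and CD40 agonist libraries lay above every Control library. Means were 1046 ± 256, 1538 ± 1269.6, 937 ± 273 and 361 ± 177 TPM (SD, n = 3 each). Against Control the log2 fold changes of Cxcl2 were 1.66 ± 0.77, adjusted p = 0.349, in the combination; 2.08 ± 0.78, adjusted p = 0.433, in CSF1Ri; and 1.46 ± 0.77, adjusted p = 0.705, in the CD40 agonist group. CSF1Ri replicate 3 decided the second of these. Without it Cxcl2 rose in CSF1Ri against Control by a log2 fold change of 2.60 (adjusted p = 0.0251), among 124 genes called. Without combination replicate 2 as well the value was 2.62 (adjusted p = 0.0109), among 338 genes called, where all 12 libraries gave 2 calls. Without both, the combination against CSF1Ri was at -1.20 (adjusted p = 0.151) for Cxcl2, against -0.42 ± 0.75, adjusted p = 0.826, with all 12 libraries.

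Cxcl1, a neutrophil attractant also known as KC in mice, had 175, 169.8 and 149.5 TPM in the combination libraries and 56.1, 58.8 and 10.0 TPM in the CSF1Ri libraries. Cxcl1 had 103, 259.8 and 105 TPM in the CD40 agonist libraries, against 49.2, 51.7 and 119 TPM in the Control libraries. The combination libraries were close to each other, above all CSF1Ri and all Control libraries, and overlapped with the CD40 agonist libraries. Cxcl1 averaged 165 ± 13.3 TPM in the combination, 41.6 ± 27.4 TPM in CSF1Ri, 156 ± 90.1 TPM in the CD40 agonist group and 73.2 ± 39.4 TPM in Control (SD, n = 3 each). Unlike Cxcl2, its log2 fold change in CSF1Ri against Control was below 0 (-0.88 ± 0.60, adjusted p = 0.709). Over the 12 fits without one library this value ranged from -1.24 to -0.43. For the combination the log2 fold change was 2.16 ± 0.62, adjusted p = 0.102, against CSF1Ri and 1.28 ± 0.60, adjusted p = 0.355, against Control, neither past the test. Against the CD40 agonist it was 0.16 ± 0.59, adjusted p = 0.977.

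Cxcl3, which lies in the same cluster and acts through the same receptor, had 238, 176 and 113 TPM in the combination libraries and 385, 330.0 and 21.5 TPM in the CSF1Ri libraries. Cxcl3 had 271, 341 and 124 TPM in the CD40 agonist libraries, against 115, 68.3 and 217 TPM in the Control libraries. Every treated group overlapped with Control, and the CSF1Ri group held both the highest and the lowest library. Means were 176 ± 62.4, 245 ± 196, 245 ± 111 and 134 ± 76.1 TPM (SD, n = 3 each). The 3 log2 fold changes against Control were 0.59 ± 0.80 in the combination, 0.90 ± 0.80 in CSF1Ri and 0.96 ± 0.80 in the CD40 agonist group (adjusted p = 0.793, 0.81 and 0.859). Over the 12 fits without one library the value in CSF1Ri ranged from 0.41 to 1.43.

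Levels of Cxcl1, Cxcl2 and Cxcl3 moved beside neutrophil markers inside the CSF1Ri group. Their summed level was 2959.5, 2380.4 and 136 TPM in CSF1Ri replicates 1, 2 and 3, where the 18 neutrophil genes summed to 8059.6, 5425 and 1584 TPM. The same did not show in the CD40 agonist libraries, where the sums were 1412, 1746 and 856 TPM for the chemokines and 969, 660.2 and 787 TPM for the neutrophil genes, against 696, 299 and 709 TPM and 3322, 1355 and 1266 TPM in Control libraries. Nor did it show in the combination libraries, with 1391, 1675 and 1093 TPM for the chemokines and 1586, 2907 and 4602 TPM for the neutrophil genes. Of the 18 neutrophil genes, only 1 was at 0 throughout a group. This was Elane in CSF1Ri and in Control and Ly6g in the CD40 agonist group, with 0 such genes in the combination. S100a8, a subunit of calprotectin in neutrophils and monocytes, had 694, 1749.9 and 1932 TPM in the combination libraries and 3379, 2403 and 321 TPM in the CSF1Ri libraries. S100a8 had 377, 255 and 328 TPM in the CD40 agonist libraries, against 1439.6, 359 and 473 TPM in the Control libraries. The part of neutrophils in the chemokine levels was not tested.

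Cxcl16, the membrane-bound ligand of Cxcr6, had 380.2, 103 and 322 TPM in the combination libraries and 72.5, 84.6 and 167 TPM in the CSF1Ri libraries. Cxcl16 had 179, 235 and 288 TPM in the CD40 agonist libraries, against 157, 156 and 213 TPM in the Control libraries. The CSF1Ri libraries overlapped with Control only through replicate 3, and combination replicate 2 lay below all Control libraries while the other 2 combination libraries lay above them. Means were 268 ± 146, 108 ± 51.6, 234 ± 54.8 and 175 ± 32.8 TPM (SD, n = 3 each). The log2 fold change of the combination was 1.41 ± 0.43, adjusted p = 0.12, against CSF1Ri, and 0.79 ± 0.43, adjusted p = 0.42, against Control. Combination replicate 2 decided the first of these: without it Cxcl16 rose against CSF1Ri by 1.78 (adjusted p = 0.0274), among 429 genes called. Summed dendritic cell genes, given further below, also set combination replicate 2 and CSF1Ri replicate 3 apart within their groups. A part of dendritic cells in the Cxcl16 levels was not tested. Without both libraries that stood apart, Cxcl16 was higher in the combination than in CSF1Ri (2.27, adjusted p = 0.00518) and in Control (1.17, adjusted p = 0.031). It was lower in CSF1Ri than in Control (-1.11, adjusted p = 0.0363). That fit left 2 libraries in the combination and 2 in CSF1Ri, and the libraries left out were chosen with the data known. It called 632, 232 and 338 genes in these comparisons, against 311, 124 and 2 with all 12 libraries.

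Cxcl13, the B cell attractant, was at 0 in 6 of 12 libraries. Its estimated counts were 0, 16.0 and 77.0 in the combination libraries, 0, 0 and 0 in the CSF1Ri libraries, 0, 47.0 and 80.0 in the CD40 agonist libraries and 116, 50.0 and 0 in the Control libraries. The highest library reached 4.49 TPM, and each group with counts also held a library at 0, so no fold change is given. No difference among the 4 groups passed edgeR's test (adjusted p = 0.446).

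**Figure D2:**
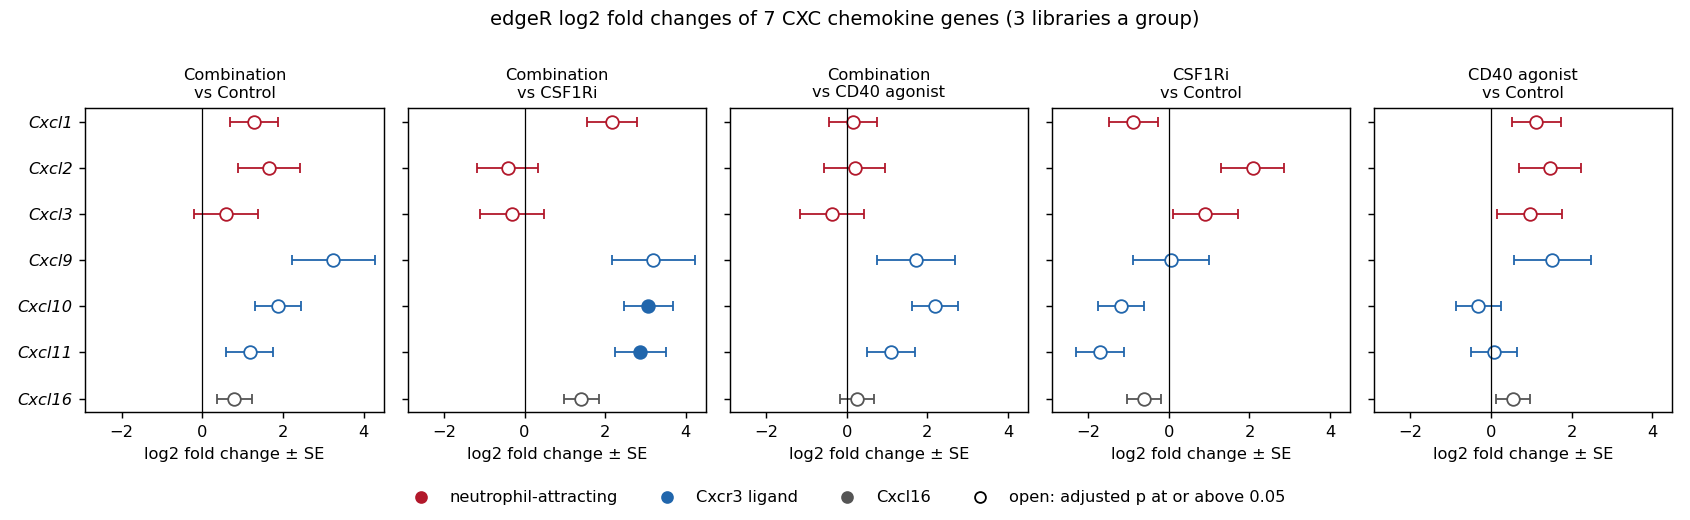
Log2 fold change from edgeR with its SE (horizontal axis) of 7 CXC chemokine genes (rows) in 5 comparisons (panels), with 3 libraries a group. Filled points passed an adjusted p of 0.05: only Cxcl10 and Cxcl11 in the combination against CSF1Ri. In that panel Cxcl2 (-0.42) and Cxcl3 (-0.32) lie near 0, below it here but above it in limma on log2(TPM + 1), and the other 5 genes lie between 1.41 and 3.20.

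Counted over the 8 genes, edgeR called 2 in the combination against CSF1Ri, both higher, where 1.94% of all tested genes were called in either direction. At an unadjusted p below 0.05 there were 6 of 8, all higher (all genes 18.3%): Cxcl1, Cxcl9, Cxcl10, Cxcl11, Cxcl13 and Cxcl16. Of these, Cxcl13 was at 0 in every CSF1Ri library. DESeq2 called 5 (all genes 10.6%), and limma on log2(TPM + 1) called 3 (all genes 5.22%). In the combination against Control edgeR called 0 of 8 (all genes 0.774%). There, 2 had an unadjusted p below 0.05, Cxcl9 and Cxcl10 (all genes 14.8%), DESeq2 called 2 (all genes 7.47%) and limma 0 (all genes 2.6%). The combination against the CD40 agonist gave 0 of 8 in edgeR (all genes 0%) and 1 at an unadjusted p below 0.05 (all genes 9.05%). DESeq2 called 1 there (all genes 2.15%) and limma 0 (all genes 0.206%).

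For CSF1Ri against Control there were 0 of 8 in edgeR (all genes 0.0125%) and 3 at an unadjusted p below 0.05 (all genes 9.47%). They did not share a direction: Cxcl2 was higher, while Cxcl11 and Cxcl13, the latter at 0 in every CSF1Ri library, were lower. DESeq2 called 0 (all genes 2.86%), as did limma (all genes 0.293%). For the CD40 agonist against Control there were 0 in edgeR (all genes 0%) and 0 at an unadjusted p below 0.05 (all genes 7.68%), with 0 in DESeq2 (all genes 1.55%) and 0 in limma (all genes 0.119%).

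Without a test, the libraries of 5 genes (Cxcl1, Cxcl2, Cxcl9, Cxcl10 and Cxcl11) did not overlap between combination and Control, all higher in the combination, where 6.22% of all tested genes were higher with no overlap. The same held for 4 of the 8 against CSF1Ri (Cxcl1, Cxcl9, Cxcl10 and Cxcl11), where 6.53% of all genes were higher and 23.5% stood apart in either direction. Against the CD40 agonist it held for 2 (Cxcl10 and Cxcl11; all genes 4.44%), and 0 were lower (all genes 9.43%). In CSF1Ri against Control no gene was higher without overlap (all genes 7.44%) and Cxcl10 and Cxcl11 were lower without overlap (all genes 8.01%). In the CD40 agonist group against Control, Cxcl2 was higher (all genes 6.57%) and Cxcl10 lower (all genes 11.1%). For Cxcl10 this held in TPM alone: in CPM (counts per 1000000) the CD40 agonist libraries had 25.9, 11.4 and 18.4, against 23.9, 25.5 and 19.9 in Control, and the log2 fold change was -0.31 ± 0.56, adjusted p = 0.952. Medians of the 8 log2 fold changes were 1.23 for the combination against Control, 2.52 against CSF1Ri, 0.22 against the CD40 agonist, -0.75 for CSF1Ri and 0.75 for the CD40 agonist against Control, where the medians of all genes lay between -0.01 and 0.02. With the CSF1Ri level of Cxcl13 set to a floor of 3 counts over the group these medians were the same. Comparisons against Control share its 3 libraries, and the 3 comparisons of the combination share the combination libraries.

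Whether an agent acted differently in the presence of the other was tested as an interaction: the log2 fold change of the combination against CSF1Ri minus that of the CD40 agonist against Control. Cxcl10 was lower in CSF1Ri than in Control (-1.19 ± 0.57, adjusted p = 0.54) but higher in the combination than in the CD40 agonist group (2.19 ± 0.58, adjusted p = 0.292), in both cases with no overlap of libraries. Its interaction was 3.39 ± 0.81, adjusted p = 0.319, falling to 2.34 (adjusted p = 0.238) without combination replicate 2 and 2.03 (adjusted p = 0.109) without both libraries that stood apart. For Cxcl11 the interaction was 2.80 ± 0.84, adjusted p = 0.428, and for Cxcl2, where it ran the other way, -1.88 ± 1.07, adjusted p = 0.703. Without both libraries that stood apart it was -2.66 (adjusted p = 0.0789) for Cxcl2. edgeR called 0 of the 8 interactions (all genes 0%), and 2 had an unadjusted p below 0.05 (all genes 8.14%). limma called 0 (all genes 0%). DESeq2 called 2 (all genes 1.46%), Cxcl10 (adjusted p = 0.00456) and Cxcl11 (adjusted p = 0.0384). In the test of any difference among the 4 groups edgeR called 0 of 8 (all genes 1.2%), and 5 had an unadjusted p below 0.05 (all genes 16.3%). The smallest adjusted p were 0.0615 for Cxcl10 and 0.125 for Cxcl11. Without both libraries that stood apart edgeR called Cxcl16 (adjusted p = 0.00729) and Cxcl2 (adjusted p = 0.025), among 646 genes called of 16635. With all 12 libraries DESeq2 called 4 in this test, Cxcl1, Cxcl9, Cxcl10 and Cxcl11 (all genes 12.4%), and limma 1, Cxcl10 (all genes 3.81%).

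The balance of neutrophil attractants and Cxcr3 ligands was described per library as the mean log2(TPM + 1) of Cxcl1, Cxcl2 and Cxcl3 minus that of Cxcl9, Cxcl10 and Cxcl11. This gap was 4.18, 2.95 and 3.80 in the combination libraries, 6.47, 6.14 and 2.66 in the CSF1Ri libraries, 5.45, 6.08 and 3.74 in the CD40 agonist libraries and 4.08, 3.51 and 4.31 in the Control libraries. Neutrophil attractants were above Cxcr3 ligands in every library, and all groups overlapped. The group means of the gap were 3.64 ± 0.63, 5.09 ± 2.11, 5.09 ± 1.21 and 3.97 ± 0.41 (SD, n = 3 each), and as a score over chosen genes it was not tested. The 4 widest gaps were in CSF1Ri replicates 1 and 2 and CD40 agonist replicates 1 and 2, and the narrowest was in CSF1Ri replicate 3.

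Taken by class, the mean log2(TPM + 1) of the Cxcr3 ligands was 4.25, 5.47 and 4.13 in the combination, 2.10, 2.27 and 2.23 in CSF1Ri, 2.82, 2.79 and 3.91 in the CD40 agonist group and 3.11, 2.93 and 3.43 in Control, so that the combination was above all others and CSF1Ri below all others. The mean log2(TPM + 1) of the neutrophil attractants was 8.43, 8.42 and 7.92 in the combination, 8.58, 8.41 and 4.89 in CSF1Ri, 8.27, 8.87 and 7.66 in the CD40 agonist group and 7.19, 6.44 and 7.74 in Control, with CSF1Ri replicate 3 far below the rest. In summed TPM, the neutrophil attractants exceeded the Cxcr3 ligands 20.5, 6.99 and 15.8 times in the combination libraries, 153, 115 and 8.93 times in the CSF1Ri libraries, 45.6, 80.2 and 17.7 times in the CD40 agonist libraries and 17.8, 7.70 and 18.3 times in the Control libraries. The Cxcr3 ligands of Control libraries summed to nearly the same level in each (39.1, 38.8 and 38.7 TPM), while those of the combination differed more (68.0, 239.6 and 69.0 TPM).

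**Figure D3:**
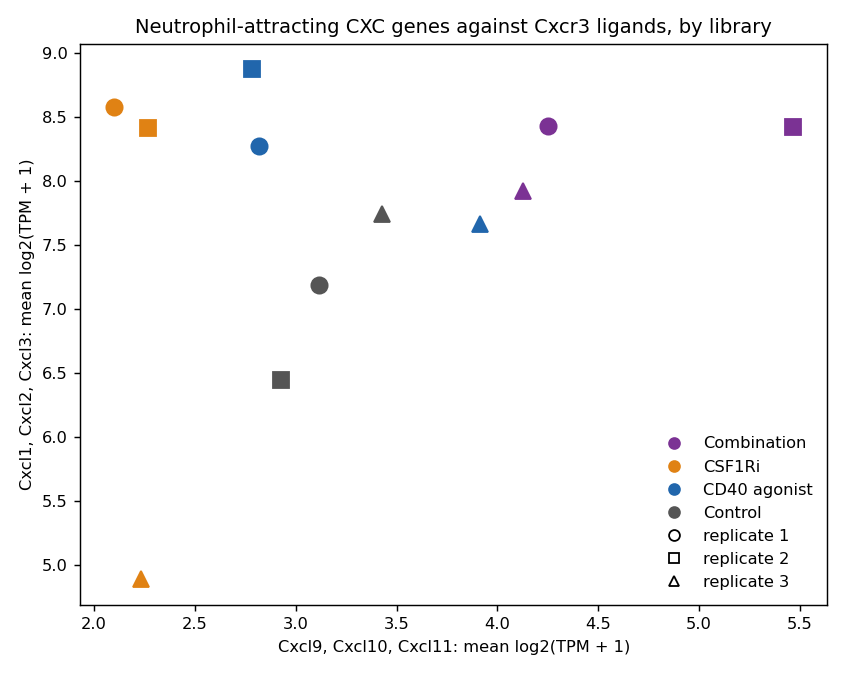
Mean log2(TPM + 1) of Cxcl9, Cxcl10 and Cxcl11 (horizontal axis) against that of Cxcl1, Cxcl2 and Cxcl3 (vertical axis), 1 point per library, with color for the group and symbol for the replicate. Combination libraries lie furthest right, from 4.13 to 5.47, CSF1Ri libraries furthest left, from 2.10 to 2.27, and CSF1Ri replicate 3 lies lowest at 4.89.

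Transcripts of a gene differ in whether they encode protein. The protein-coding transcript Cxcl3-201 made up 99.4% of Cxcl3 TPM in the median library, Cxcl10-201 94.5% of Cxcl10 and Cxcl1-201 90.9% of Cxcl1. The mean share of Cxcl10-201 was 89.6% in the combination, 94.3% in CSF1Ri, 75.2% (62.5% to 92.9%) in the CD40 agonist group and 98.5% in Control. Cxcl10-204, which keeps an intron, held a mean of 16.4% in the CD40 agonist group and 0.673% in Control. For Cxcl2, the coding Cxcl2-201 took 74.3% (range 49.7% to 85.3%) and Cxcl2-203, which keeps an intron, 15.9% (8.20% to 36.5%). Cxcl16 stood out, since its coding transcript Cxcl16-201 held 41.1% (35.3% to 48.9%) and Cxcl16-202, annotated as a target of nonsense-mediated decay, 50.3% (44.7% to 57.4%). Of Cxcl11, 94.8% was the transcript Cxcl11-201, annotated as coding. Shares of transcripts are estimates, since reads common to several transcripts were divided between them.

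Of the receptors, Cxcr2, which binds Cxcl1, Cxcl2 and Cxcl3 and is abundant on neutrophils, had 18.5, 24.4 and 49.4 TPM in the combination libraries and 155, 117 and 29.4 TPM in the CSF1Ri libraries. Cxcr2 had 26.4, 21.9 and 27.5 TPM in the CD40 agonist libraries, against 60.2, 16.9 and 21.3 TPM in the Control libraries. CSF1Ri replicates 1 and 2 were the highest libraries, as they were for Cxcl2, and CSF1Ri overlapped with Control through replicate 3. The log2 fold change of Cxcr2 in CSF1Ri against Control was 1.54 ± 0.58, adjusted p = 0.433, and in the combination against CSF1Ri -1.50 ± 0.58, adjusted p = 0.207. Cxcr3, the receptor of Cxcl9, Cxcl10 and Cxcl11 on T and NK cells, had 0.0200, 0.0239 and 3.82 TPM in the combination libraries and 1.50, 1.83 and 0 TPM in the CSF1Ri libraries. Cxcr3 had 2.55, 6.46 and 7.77 TPM in the CD40 agonist libraries, against 1.82, 6.86 and 5.80 TPM in the Control libraries. It was thus scarce throughout. The CSF1Ri libraries lay below all CD40 agonist libraries, and every other pair of groups overlapped.

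Cxcr4, the receptor of Cxcl12 on many leukocytes, had 26.2, 13.6 and 25.5 TPM in the combination libraries, 57.7, 40.0 and 47.8 TPM in the CSF1Ri libraries, 34.4, 27.6 and 29.9 TPM in the CD40 agonist libraries and 55.2, 37.9 and 37.8 TPM in the Control libraries, and Cxcr6, which binds Cxcl16, had 10.2, 3.20 and 11.8 TPM in the combination libraries and 3.93, 6.90 and 2.02 TPM in the CSF1Ri libraries. Cxcr6 had 14.8, 7.06 and 20.2 TPM in the CD40 agonist libraries, against 8.94, 0.361 and 4.61 TPM in the Control libraries. Combination libraries lay below all CSF1Ri, CD40 agonist and Control libraries for Cxcr4 (log2 fold change -0.99 ± 0.25, adjusted p = 0.074, against CSF1Ri), with no such order for Cxcr6. Cxcr1 and Cxcr5 and the scavenger receptors Ackr1 and Ackr3 did not exceed 5.57 TPM in any library. edgeR called 0 of these 8 receptors in each of the 5 comparisons, in the interaction and in the test of any difference. In the combination against CSF1Ri, 4 of them had an unadjusted p below 0.05 (all genes 18.3%), DESeq2 called 3 (all genes 10.6%) and limma 1 (all genes 5.22%). The median of the 8 log2 fold changes was -0.34 with Ackr1, at 0 in CSF1Ri, at its floor. In the other tests of these receptors 0 to 3 had an unadjusted p below 0.05, and DESeq2 called 0 to 3 and limma 0. Counts for this list and those below are to be read beside the shares of all genes given above for the same test.

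Of 7 further CXC ligands, only Pf4 and Ppbp, both known from platelets, exceeded 10 TPM in any library. Pf4, also made by tissue macrophages, had 174, 2.67 and 57.3 TPM in the combination libraries, 8.97, 9.37 and 22.0 TPM in the CSF1Ri libraries, 114, 179.5 and 185 TPM in the CD40 agonist libraries and 106, 90.7 and 105 TPM in the Control libraries, and its levels were low in all CSF1Ri libraries and in combination replicate 2. Ppbp, another Cxcr2 ligand, had 0.679, 4.04 and 1.38 TPM in the combination libraries, 2.12, 0.102 and 2.10 TPM in the CSF1Ri libraries, 11.5, 9.16 and 10.7 TPM in the CD40 agonist libraries and 14.8, 19.3 and 28.8 TPM in the Control libraries, with both groups on the inhibitor below all Control libraries. edgeR called 0 of the 7 in each of the 5 comparisons. For CSF1Ri against Control 4 had an unadjusted p below 0.05, DESeq2 called 3 and limma 1, with log2 fold changes of -2.99 ± 0.97, adjusted p = 0.336, for Pf4 and -3.85 ± 0.94, adjusted p = 0.196, for Ppbp.

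Among 7 genes that act on these ligands or their mRNA, edgeR called 0 in each comparison, and at most 2 had an unadjusted p below 0.05, with at most 2 called by DESeq2 and 0 by limma. Zfp36 (tristetraprolin), which destabilises AU-rich mRNAs such as Cxcl1 and Tnf, was the most abundant, at 1338, 1503 and 1188 TPM in the combination libraries and 1155, 1089 and 768 TPM in the CSF1Ri libraries. Zfp36 had 1103, 979 and 992 TPM in the CD40 agonist libraries, against 909, 908 and 964 TPM in the Control libraries. The combination libraries exceeded all others, with a log2 fold change of 0.74 ± 0.16, adjusted p = 0.0679, against Control. Adam10, which sheds Cxcl16, averaged 66.4 ± 3.25 TPM in the combination and 63.4 ± 7.18 TPM in Control (SD, n = 3 each), a difference below the spread between libraries.

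Of 27 genes that act in NF-kB signaling or induce it, 26 were tested. In the combination against CSF1Ri edgeR called 6 higher (Tnf, Tnfaip3, Nfkbia, Nfkbiz, Cd40 and Nfkb2) and 2 lower (Il17ra and Nfkb1), and the median of the list was 0.23 against 0.02 over all genes. Against Control it called 4 higher (Tnf, Tnfaip3, Nfkbia and Nfkbiz) and the same 2 lower, with a median of 0.14. Tnf, a cytokine that induces all 3 neutrophil attractants and itself a target of NF-kB, had 108, 196 and 79.1 TPM in the combination libraries and 9.63, 10.9 and 6.21 TPM in the CSF1Ri libraries. Tnf had 96.9, 60.8 and 50.3 TPM in the CD40 agonist libraries, against 21.6, 17.6 and 19.4 TPM in the Control libraries. Combination libraries were above all CSF1Ri and Control libraries, and CSF1Ri libraries below all Control libraries. Tnf rose in the combination by a log2 fold change of 4.04 ± 0.41, adjusted p = 0.0066, against CSF1Ri, a call kept in all 12 fits without one library, and by 2.91 ± 0.39, adjusted p = 0.0156, against Control, a call lost without any 1 of the Control libraries (highest adjusted p = 0.0896).

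Tnfaip3, which encodes the NF-kB inhibitor A20, rose by 1.74 ± 0.32, adjusted p = 0.0278, against CSF1Ri and by 2.65 ± 0.34, adjusted p = 0.0145, against Control. Nfkbia, which encodes the inhibitor IkB alpha, rose by 1.34 ± 0.28, adjusted p = 0.0393, and 1.91 ± 0.29, adjusted p = 0.0196. Nfkbiz, a nuclear cofactor of NF-kB, rose by 1.51 ± 0.27, adjusted p = 0.0232, and 1.41 ± 0.26, adjusted p = 0.039. Cd40, the receptor of the antibody, and Nfkb2, the subunit of the noncanonical pathway that Cd40 engages, rose against CSF1Ri only by the test, by 1.66 ± 0.27, adjusted p = 0.0181, and 0.69 ± 0.13, adjusted p = 0.027. Il17ra, a receptor chain whose ligand Il17a had counts in 1 library alone, fell to 14.1, 20.0 and 19.4 TPM in the combination, against 40.5, 50.0 and 48.9 TPM in CSF1Ri and 45.7, 44.3 and 48.7 TPM in Control. Nfkb1, the p105 and p50 subunit, fell to 109, 88.8 and 131 TPM in the combination, against 189.7, 211 and 178 TPM in CSF1Ri and 193, 195 and 195 TPM in Control.

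Many of these calls depended on single libraries. Against CSF1Ri, the calls of Tnfaip3, Cd40, Nfkbiz and Nfkb1 were each lost without combination replicate 1 or without CSF1Ri replicate 1 or 2, with highest adjusted p of 0.09, 0.0899, 0.0841 and 0.0997. The call of Nfkb2 was lost without these 3 or combination replicate 3 (highest adjusted p = 0.0952), that of Il17ra without CSF1Ri replicate 2 (0.0565), and that of Nfkbia without any library but CD40 agonist replicate 1 or combination replicate 3 (0.103). Against Control, the calls of Tnfaip3, Nfkbia and Il17ra were lost without any 1 of the Control libraries (0.0836, 0.104 and 0.0896). Those of Nfkbiz and Nfkb1 against Control were kept only without combination replicate 3, CSF1Ri replicate 1 or CSF1Ri replicate 3 (adjusted p up to 0.15 without the others) for Nfkbiz, and only without combination replicate 3 or CSF1Ri replicate 3 (adjusted p up to 0.147 without the others) for Nfkb1. Without Control replicate 1, 2 or 3, edgeR called 0, 1 and 0 of all genes in the combination against Control, where the full fit called 124. Calls lost there without a Control library, in this and other passages, are thus no trait of the genes named.

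Il1b, the NF-kB target that encodes IL-1 beta, had 424, 482 and 436 TPM in the combination libraries and 1992, 1623 and 295 TPM in the CSF1Ri libraries. Il1b had 327, 341 and 324 TPM in the CD40 agonist libraries, against 887, 263 and 399.8 TPM in the Control libraries. CSF1Ri replicates 1 and 2 were the highest of all 12 libraries, as for Cxcl2, and CSF1Ri replicate 3 the second lowest. Its log2 fold change in CSF1Ri against Control was 1.36 ± 0.58, adjusted p = 0.501. For Tnf, by contrast, all CSF1Ri libraries were the lowest. In the remaining comparisons edgeR called 0 of the 26 genes, with 10 at an unadjusted p below 0.05 for the CD40 agonist against Control (DESeq2 called 5, limma 0), 6 for CSF1Ri against Control (0 and 0), and 7 for the combination against the CD40 agonist (4 and 0).

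Of 17 genes of the interferon pathway that induces Cxcl9, Cxcl10 and Cxcl11, edgeR called 2 in the combination against CSF1Ri and 1 against Control. Ifngr1, a chain of the interferon gamma receptor, fell to 431, 422 and 454 TPM in the combination, against 747, 764 and 742 TPM in CSF1Ri and 754, 810.4 and 729 TPM in Control, with log2 fold changes of -0.58 ± 0.09, adjusted p = 0.0129, and -0.61 ± 0.09, adjusted p = 0.0186. These were lost without CSF1Ri replicate 1 or 2 (0.0585 at most) and without any 1 of the Control libraries (0.0887 at most). Irf8, a transcription factor of myeloid cells, rose against CSF1Ri (0.77 ± 0.16, adjusted p = 0.0402), a call kept, of 12 fits without one library, only without CSF1Ri replicate 3 (adjusted p up to 0.141 without the others). List medians were 0.06 against CSF1Ri and 0.20 against Control. The other comparisons had 0 calls in edgeR, with 5 at an unadjusted p below 0.05 for the combination against the CD40 agonist (DESeq2 3, limma 1), 2 for CSF1Ri against Control (0 and 0) and 5 for the CD40 agonist against Control (2 and 0).

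Ifng, the interferon of T and NK cells, had 15.1, 16.2 and 15.4 TPM in the combination libraries and 4.59, 3.75 and 8.96 TPM in the CSF1Ri libraries. Ifng had 20.3, 22.8 and 13.2 TPM in the CD40 agonist libraries, against 5.36, 3.32 and 4.78 TPM in the Control libraries. Libraries of both groups given the CD40 agonist lay above all others, and the test of any difference among the groups passed (adjusted p = 0.0381, kept only without CSF1Ri replicate 3 (adjusted p up to 0.109 without the others)), though the combination against Control (2.05 ± 0.42, adjusted p = 0.0538) and against CSF1Ri (1.65 ± 0.41, adjusted p = 0.068) did not. Ifnb1, a type I interferon, was at 0 in every CSF1Ri and Control library and had 5.40, 13.9 and 1.09 TPM in the combination libraries and 0.748, 1.42 and 5.26 TPM in the CD40 agonist libraries. Irf1, a transcription factor induced by interferon, was lowest in the 3 CD40 agonist libraries (148, 120.3 and 149 TPM, against 265, 218 and 245 TPM in Control). Irf7, which amplifies type I interferon, had 34.8, 154 and 72.8 TPM in combination libraries and 104, 117 and 115 TPM in Control libraries, which overlapped.

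**Figure D4:**
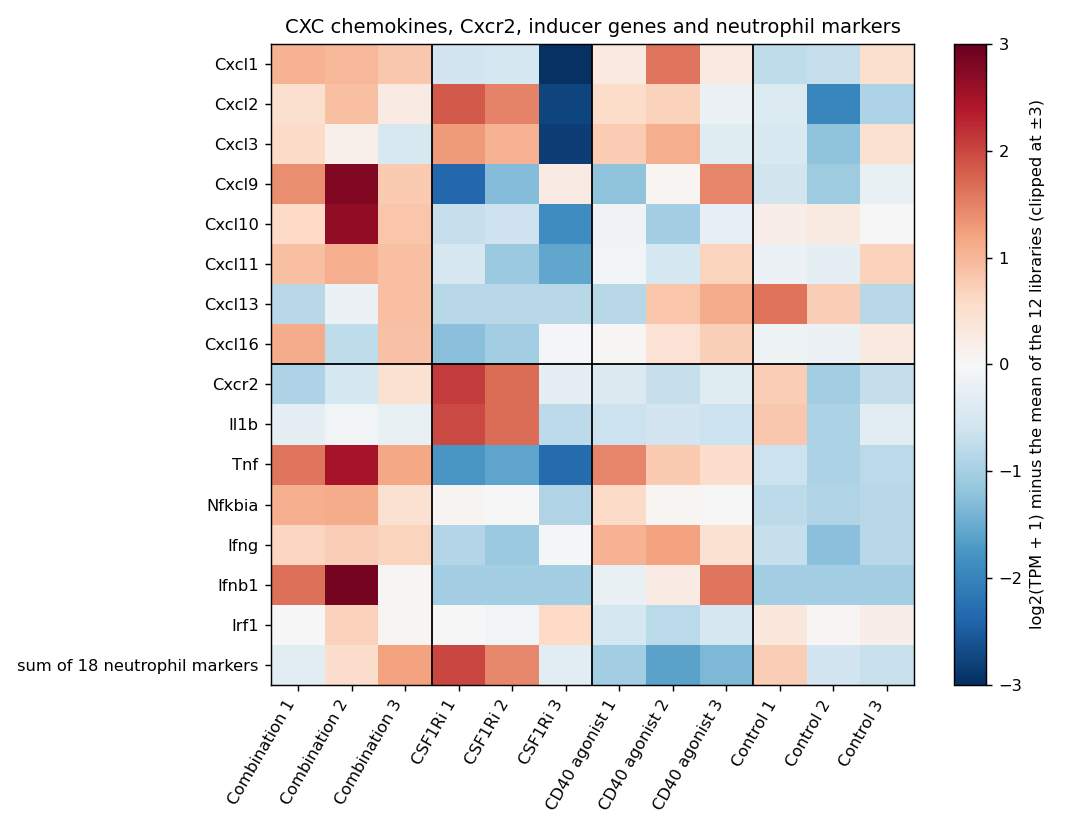
Log2(TPM + 1) minus its mean over the 12 libraries (color, clipped at 3 on either side) for the 8 CXC chemokine genes, for Cxcr2 and the inducers Il1b, Tnf, Nfkbia, Ifng, Ifnb1 and Irf1, and for the sum of 18 neutrophil markers (rows), by library (columns, ordered combination, CSF1Ri, CD40 agonist, Control). Tnf is high in every combination library and low in every CSF1Ri library, while Il1b, Cxcr2, Cxcl2 and Cxcl3 are high in CSF1Ri replicates 1 and 2 only within that group.

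Markers of lymphocytes and of tissue handling differed beside the Cxcr3 ligands. The 9 NK cell genes summed to 1209 to 1779.5 TPM in the combination, 667 to 958 TPM in CSF1Ri, 1206 to 2346 TPM in the CD40 agonist group and 981 to 1358 TPM in Control, and Nkg7 and Gzma rose in the combination against CSF1Ri (1.18 ± 0.22, adjusted p = 0.0298, and 1.36 ± 0.28, adjusted p = 0.0361). Of 12 fits without one library, the Nkg7 call was kept only without combination replicate 2, CSF1Ri replicate 3, CD40 agonist replicate 1, CD40 agonist replicate 2 or CD40 agonist replicate 3 (adjusted p up to 0.104 without the others), and the Gzma call only without CSF1Ri replicate 3, CD40 agonist replicate 1 or CD40 agonist replicate 3 (adjusted p up to 0.128 without the others). The 16 T cell genes, none of them called by edgeR (0 to 5 at an unadjusted p below 0.05 over all tests, 0 to 4 called by DESeq2 and 0 to 1 by limma), summed to 76.2 to 139 TPM in the combination, 81.4 to 121 TPM in CSF1Ri, 173 to 257 TPM in the CD40 agonist group and 178 to 259 TPM in Control. The 11 dendritic cell genes summed to 2098, 232 and 2247 TPM in the combination libraries, with replicate 2 far below the others. In the CSF1Ri libraries they summed to 753, 842 and 2059 TPM, with replicate 3 far above the others. Their sums were 1385.5 to 1607 TPM in the CD40 agonist group and 1421 to 2671 TPM in Control. For 10 B cell genes, the sums were 88.0 to 163, 143 to 180.5, 260.0 to 319.8 and 249.9 to 289 TPM in the same order of groups, beside the low Cxcl13. All 8 B cell genes tested had a negative log2 fold change in the combination against Control, and Ms4a1 (CD20) fell (-3.79 ± 0.74, adjusted p = 0.047, kept only without CSF1Ri replicate 3 (adjusted p up to 0.145 without the others)). Melanocyte genes summed to 20.0 to 101 TPM in the combination and 5.26 to 8.61 TPM in CSF1Ri, where Tyrp1, Mlana, Sox10 and Slc45a2 were at 0. They summed to 22.9 to 35.1 TPM in the CD40 agonist group and 13.9 to 17.7 TPM in Control. Slc45a2 was at 0 in both of these groups too, and Sox10 in Control.

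The 20 genes known to respond to dissociation at 37 degrees summed to 5059.6 to 6361 TPM in the combination, 3727 to 4987 TPM in CSF1Ri, 4381 to 4779 TPM in the CD40 agonist group and 3443 to 3774 TPM in Control. Of these, edgeR called 5 higher in the combination against Control (Fos, Fosb, Jun, Junb and Atf3) and 2 against CSF1Ri (Atf3 and Jun, both kept in all 12 fits without one library). Against Control, the calls of Atf3, Jun and Junb were lost without any 1 of the Control libraries (0.0766, 0.0896 and 0.0836 at most), Fos was kept only without CSF1Ri replicate 1 or CSF1Ri replicate 3 (adjusted p up to 0.138 without the others), and Fosb only without combination replicate 2 or CSF1Ri replicate 3 (adjusted p up to 0.149 without the others). Atf3 is also induced by NF-kB and had 330.2, 271 and 255 TPM in the combination libraries and 94.1, 63.5 and 49.1 TPM in the CSF1Ri libraries. Atf3 had 253, 167 and 177 TPM in the CD40 agonist libraries, against 57.8, 62.6 and 52.3 TPM in the Control libraries. Of the 18 neutrophil genes, 13 had a positive and 5 a negative log2 fold change in the combination against Control (median 1.27, all genes 0.00), and 7 a positive and 11 a negative one against CSF1Ri (median -0.41, all genes 0.02). Among them, Retnlg fell in the combination against CSF1Ri (mean 61.5 ± 30.1 TPM, against 1114 ± 456 TPM, SD, n = 3 each, edgeR adjusted p = 0.00837) and Control (-2.87 ± 0.46, adjusted p = 0.0228), and G0s2 fell against CSF1Ri (-2.74 ± 0.53, adjusted p = 0.0313). The Retnlg call against CSF1Ri was kept in all 12 fits, that against Control was lost without any 1 of the Control libraries or combination replicate 3 (0.109 at most), and that of G0s2 was kept only without combination replicate 3, CSF1Ri replicate 3 or CD40 agonist replicate 1 (adjusted p up to 0.102 without the others). Whether other cells or handling had a part in the chemokine levels was not tested.

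Over the 12 libraries, the 3 genes whose log2 CPM was most like that of each chemokine were found among 16027 by Pearson's r, as a description with no test, since they are the highest of many. For Cxcl10 they were Ripk3 (r = 0.979, rho = 0.944), Igf2r (r = 0.936, rho = 0.902), Emc2 (r = 0.927, rho = 0.860), and without the 2 libraries farthest from the median of Cxcl10, combination replicate 2 and CSF1Ri replicate 3, r was 0.916, 0.790 and 0.735. For Cxcl2 they were Slpi (r = 0.970, rho = 0.965), Ier3 (r = 0.956, rho = 0.825), Csrnp1 (r = 0.953, rho = 0.937), with r of 0.936, 0.874 and 0.956 without CSF1Ri replicate 3 and Control replicate 2. For Cxcl3 they were Inhba (r = 0.916, rho = 0.720), Ptgs2 (r = 0.903, rho = 0.741), Zfp277 (r = 0.896, rho = 0.832), where r dropped to 0.612, 0.616 and 0.686 without the same 2 libraries, so that these likenesses rested in good part on them. For Cxcl1 they were Spp1 (r = 0.953, rho = 0.867), Hs3st3b1 (r = 0.911, rho = 0.867), Ncapg2 (r = 0.910, rho = 0.727), and for Cxcl16 Tubb5 (r = 0.985, rho = 0.965), Cd81 (r = 0.976, rho = 0.958), Tuba1a (r = 0.967, rho = 0.965).

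Cxcl9 was most like Tgtp1 (r = 0.932, rho = 0.902), Psma3 (r = 0.909, rho = 0.776), Mrps28 (r = 0.906, rho = 0.916); Cxcl11 most like Mettl27 (r = 0.902, rho = 0.832), Nuf2 (r = 0.898, rho = 0.797), Clec4n (r = 0.891, rho = 0.853); and Cxcl13, with its many zeros, most like Klrg2 (r = 0.891, rho = 0.819), Kank2 (r = 0.840, rho = 0.825), Knop1 (r = 0.828, rho = 0.825). None of the 8 chemokines was among another's 3 nearest genes. Between the chemokines themselves, r was 0.886 for Cxcl2 and Cxcl3 and 0.826 for Cxcl10 and Cxcl11, but 0.581 for Cxcl1 and Cxcl2, 0.803 for Cxcl1 and Cxcl11, and 0.565 for Cxcl9 and Cxcl10. For Cxcl1 and Cxcl3, r was 0.706. Cxcl1 was thus closer to Cxcl11 than to Cxcl2 or Cxcl3 over these libraries, which share group, depth and preparation. The values between chemokines were taken over all 12 libraries only.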

How the data were processed

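RNA was measured in 12 libraries (4 groups of 3 samples, grouped by the sample labels). Tumors were treated with collagenase IV at 37 degrees, per the labels' protocols; 50 ng of RNA went into a SMARTer ultra low input kit that does not keep the strand, and libraries were read as 75-base pairs, 6 to a lane. No source used here gives the lane of a library. Reads of a gene and an overlapping antisense gene cannot be told apart without strand. Per the submitters' processing notes, STAR, HTSeq, DESeq2 and mm10 were used. The deposited files hold, for each of 111462 transcripts, an estimated count and a TPM value; no source used here names the program that made them. The authors' estimated counts are mostly not whole, and the deposited TPM values sum to 1000000 per library. The labels give the genotype as wild type in one field and list alleles in another; further alleles, and 1 gene that the rule for named genes picked, are not reported here.

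Transcripts were matched to GENCODE M21 (110203, or 98.9%), counts and TPM were summed per gene, and summed counts were rounded. The unmatched transcripts held 0.378% to 0.436% of counts and were left out. One fit of all 12 libraries was made with edgeR 4.0.16 in R 4.3.3 (TMM scaling, filterByExpr, robust quasi-likelihood test, 8 residual degrees of freedom), with Benjamini-Hochberg adjustment over 16027 genes and a threshold of 0.05. The standard error is the absolute log2 fold change divided by the square root of F. The biological coefficient of variation was 61.0%, which limits what 3 libraries a group can call. The script was tested on simulated data. Alternatives were DESeq2 factors, no filter, DESeq2 1.42.0, the bias-adjusted fit, limma 3.58.1 on log2(TPM + 1), a replicate block, leaving out each library, leaving out both libraries that stood apart, and only the groups compared. Tables and plots were made with Python 3.11.15, pandas 2.3.3 and matplotlib 3.10.9. The chemokines, the gene lists and the libraries set apart were chosen with earlier results of these data known. Named from the NF-kB and interferon lists were all genes past the threshold and the 4 with the widest range of group means. Other names were chosen after their values were seen: Ifnb1, S100a8, Zfp36, Adam10 and those marker genes past the threshold that the text names.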

Additional observations from a re-analysis of the deposited data

Results flagged for a closer look

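For Cxcl10, the CSF1 receptor inhibitor went with a lower level when given alone and a higher one when given with the CD40 agonist. Libraries did not overlap in either case, which held for 8.01% and 4.44% of all genes in these directions. Neither difference passed edgeR's test (-1.19, adjusted p = 0.54, and 2.19, adjusted p = 0.292). Without combination replicate 2 the second was 1.15. In TPM the same pattern of levels held for the CD40 agonist. It went with a lower Cxcl10 level alone, against Control, and a higher one with the inhibitor, against CSF1Ri. The first of these is small (log2 fold change -0.31 ± 0.56, edgeR adjusted p = 0.952), and the libraries of the CD40 agonist and Control groups overlapped in CPM. Both are the same interaction, 3.39 on the log2 scale. edgeR's test of it did not pass (adjusted p = 0.319), while that of DESeq2 did (adjusted p = 0.00456).

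Cxcl11 was likewise below Control with the inhibitor alone and above the CD40 agonist group with both agents, with no overlap of libraries, and its interaction was 2.80. edgeR's adjusted p was 0.428 and that of DESeq2 0.0384. No explanation of either was tested.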

How the results depend on the processing

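Of 833 fold changes of single chemokines under alternatives, 774 kept their direction and their side of the threshold, 25 lost a call, 15 gained one and 19 turned direction. Cxcl10 in the combination against CSF1Ri was called in 11 of 20 alternatives (log2 fold change 1.71 to 3.43), and Cxcl11 in 4 of 20. Counts of all genes called moved most: DESeq2 called 1676 in the combination against CSF1Ri (edgeR 311), 1130 in the combination against Control (124), 350 against the CD40 agonist (0), 455 for CSF1Ri (2) and 247 for the CD40 agonist (0) against Control, 238 for the interaction (0) and 1977 for any difference (193). In the same order, limma called 660, 329, 26, 37 and 15, with 482 for any difference, and the bias-adjusted fit 525, 282, 14 and, for the CD40 agonist against Control, 10, with 411 for any difference. Without both libraries that stood apart the counts were 632, 232, 8, 338 and 38, with 66 for the interaction and 646 for any difference. With only the groups compared they were 0 against CSF1Ri, 5 for the combination, 0 for CSF1Ri and 43 for the CD40 agonist against Control. Fewer libraries share the estimate of the spread in that setting. The cause of the changed counts was not tested in any setting.

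Among the 8 chemokines, DESeq2 called 5 in the combination against CSF1Ri (edgeR 2), 2 against Control, 1 against the CD40 agonist, 2 for the interaction and 4 for any difference, where edgeR called 0. Any difference gave 2 in the bias-adjusted fit, 1 in limma and 2 without both libraries. Without both libraries there were 2 for CSF1Ri and 1 for the combination against Control. In the combination against CSF1Ri there was 1 with no filter and 0 with only the groups compared. Directions that turned were those of small changes: in limma Cxcl11 for the CD40 agonist (-0.054) and Cxcl9 for CSF1Ri (-0.52) against Control, and Cxcl2 (0.35) and Cxcl3 (0.25) in the combination against CSF1Ri; without both libraries Cxcl9 for CSF1Ri against Control (-1.47) and Cxcl2 in the combination against the CD40 agonist (-0.041). The gap between the classes was 2.86 in the combination and 3.40 in Control on log2(CPM + 1), and 2.89 and 3.50 without Cxcl11.

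Leaving out 1 library at a time gave 22 to 429 genes in the combination against CSF1Ri, 0 to 154 against Control, 0 to 6 against the CD40 agonist, 0 to 124 for CSF1Ri and 0 to 7 for the CD40 agonist against Control, 0 to 15 for the interaction and 13 to 291 for any difference. Of the 8 chemokines it called 0 to 2 in the combination against CSF1Ri, 0 to 1 for CSF1Ri against Control, 0 to 1 for any difference (Cxcl2 without CSF1Ri replicate 3) and 0 to 0 elsewhere. The gap ranged from 3.37 to 3.99 in the combination, 4.40 to 6.31 in CSF1Ri, 4.60 to 5.77 in the CD40 agonist group and 3.79 to 4.19 in Control. Fold changes that turned direction ranged, against Control, from -0.31 to 0.53 for Cxcl11 with the CD40 agonist and -1.49 to 0.57 for Cxcl9 with CSF1Ri. In the combination they ranged, against the CD40 agonist, from -0.11 to 0.79 for Cxcl1, -0.041 to 0.38 for Cxcl2 and -0.095 to 0.62 for Cxcl16, and, against CSF1Ri, from -0.96 to 0.14 for Cxcl2 and -0.85 to 0.17 for Cxcl3.

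Same-numbered libraries did not deviate together over all genes (correlations of -0.0614 to 0.0603, 0 of 18 pairs over 0.1). This cannot tell whether a number marks a shared litter, batch or day, which the labels do not say. With a replicate block, the genes called were 121 in the combination against CSF1Ri, 59 for the combination and 1 for the CD40 agonist against Control, and 49 for any difference; 0 of the 8 chemokines were called against CSF1Ri, and Cxcl9 for CSF1Ri against Control was -0.69.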
